A study of Mus musculus with 10 samples.

Results

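The 10 genes described here are Mir200c, which gives rise to the microRNA miR-200c, and 9 genes of the epithelial to mesenchymal transition: Zeb1, Zeb2, Snai1, Snai2, Twist1, Cdh1, Cdh2, Vim and Epcam. They were found by symbol among the 23111 genes measured, and each of the 10 had 1 probe set. The samples were colon tumours of C57BL6/J mice, 5 from Ucp2-/- animals (KO, replicates 6 to 10) and 5 from Ucp2+/+ animals (WT, replicates 1 to 5). All of the mice had received the carcinogen azoxymethane together with dextran sodium sulphate, which injures the colon lining (the AOM/DSS model), and tumours were taken at week 15. Ucp2 encodes a mitochondrial inner membrane carrier, and the labels do not describe how its allele was made, in which cells it was lost, or the age of the mice. Each sample was hybridised to 1 Affymetrix whole-transcript array, and values are RMA signals on the log2 scale. Whether each tumour came from its own mouse is not in the labels, so a p-value here speaks of the spread among these 10 arrays, which may in part be technical.

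Mir200c was chosen because its signal was lower in KO tumours, so its difference is described without a test. The other 9 genes were added for their roles. In epithelial cells the microRNAs of the miR-200 family bind the transcripts of Zeb1 and Zeb2 and hold down these transcription factors, which in turn repress the miR-200 genes and epithelial genes such as Cdh1. When the balance tips towards the ZEB factors, epithelial cells can lose their junctions and take on mesenchymal features, and this switch has been studied in colon cancer at the invading edge. The comparison asked whether the ZEB genes and the epithelial genes differed between genotypes alongside Mir200c.

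The family has 5 members, and the mature sequences of their 3p arms are shown because the seed, bases 2 to 8, decides which transcripts a microRNA can pair with. The sequences are RefSeq's on GRCm38.p6, printed 5′ to 3′ with the seed in capitals, and all 5 genes were matched by symbol. Mir200c, Mir200b and Mir429 share 1 seed.
mmu-miR-200c-3p: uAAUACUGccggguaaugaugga
mmu-miR-200b-3p: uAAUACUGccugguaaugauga
mmu-miR-429-3p: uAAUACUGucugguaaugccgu
Mir141 and Mir200a share the other seed.
mmu-miR-141-3p: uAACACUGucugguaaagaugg
mmu-miR-200a-3p: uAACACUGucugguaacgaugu
Of 1738 mature mouse microRNAs in the table, the first seed occurred in these 3 and the second in these 2.

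The genes lie in 2 clusters. Mir200c (chr6:124718322-124718390, minus strand) stands 336 bases from Mir141 on chromosome 6, and Mir200b, Mir200a and Mir429 lie together within 1846 bases of the minus strand of chromosome 4. The Mir200c hairpin from which the microRNA is cut is shown, with the 3p arm in capitals, because a row named Mir200c refers to this short gene.
Mir200c hairpin: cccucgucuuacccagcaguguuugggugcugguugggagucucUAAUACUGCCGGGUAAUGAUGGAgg
The labels do not say which part of the transcript the probes bind, and the mature microRNA was not measured separately.

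The signal of the deleted gene was looked at first. The platform annotation names no probe set for Ucp2, and the probe set whose ID carries its RefSeq gene number had 9.97, 9.73, 9.73, 9.82 and 9.97 in KO tumours, against 10.84, 11.39, 11.19, 11.55 and 11.52 in WT tumours. All KO arrays lay below all WT arrays, as the genotypes say, and signal remained in KO tumours. Which part of the gene the probes read is not in the labels. The median signal of an array lay between 5.84 and 5.93. The epithelial markers Krt8 and Cdh17, a keratin and an intestinal cadherin, had mean signals of 11.28 or more in both genotypes, so the arrays hold epithelial RNA. With no detection call in the file, a guide to background was set at 5.09: of 1071 olfactory receptor genes, taken as silent in colon, 95% had a mean signal below it. The means of Mir200c, Snai1 and Cdh2 lay under it in both genotypes, and no fold change is given for them.

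The Mir200c row was dim and lower in every KO tumour. Its signal was 4.17, 4.13, 4.15, 4.22 and 3.94 in KO tumours, against 4.71, 4.51, 4.71, 4.68 and 5.15 in WT tumours. The groups did not overlap, and the gap between the highest KO and the lowest WT tumour was 0.30. WT replicate 5 was the 1 array of the 10 over the guide to background. The means were 4.12 ± 0.11 in KO and 4.75 ± 0.24 in WT (SD, n = 5 each), a difference of -0.63 ± 0.11 (SE). Groups that do not overlap in this direction occurred in 0.506% of all genes, and nothing is read from that share, because the row was chosen on this contrast. The difference lay between -0.69 and -0.53 with single arrays left out, and for the same reason nothing is read from this range.

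**Figure D1:**
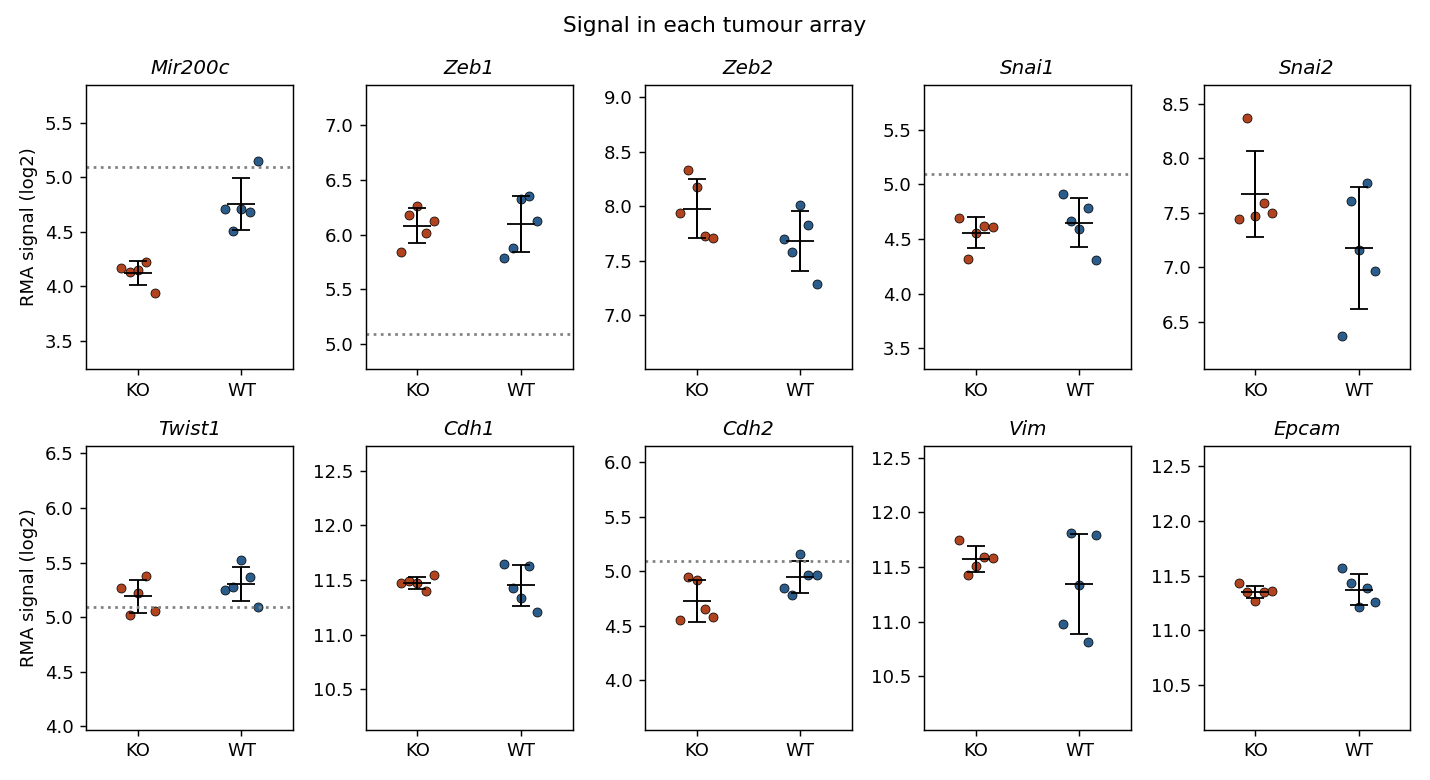
Signal (RMA, log2) of the 10 genes in each tumour array, KO left and WT right; points are arrays, bars the mean and SD over 5 arrays, the dotted line the guide to background of 5.09, and every axis spans the same number of log2 units. Mir200c is the 1 gene of the 10 whose groups do not overlap, and Cdh1, Vim and Epcam are more tightly grouped in KO.

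Each of the other miR-200 rows also had a lower mean in KO tumours. Mir200b and Mir200a, the brightest rows of the family, had differences of -0.70 ± 0.34 and -0.59 ± 0.29 (SE; limma adjusted p = 0.91 for both), which did not pass the threshold of 0.05. Mir200b had 7.42, 5.55, 6.92, 6.96 and 6.92 in KO tumours, against 6.85, 6.97, 7.96, 7.84 and 7.63 in WT tumours. The groups overlapped: 3 WT tumours lay above every KO tumour, and KO replicate 7 was far below the rest. Mir200a had 7.30, 5.63, 6.83, 6.86 and 6.49 in KO tumours, against 6.86, 6.70, 7.29, 7.52 and 7.70 in WT tumours. KO replicate 7 was again the lowest, and without it the differences were -0.40 for Mir200b and -0.34 for Mir200a. Mir429 differed by -0.47 ± 0.29 and Mir141 by -0.18 ± 0.16 (adjusted p = 0.91 and 0.915). The Mir141 row was under the guide in both genotypes. The Mir429 mean was under the guide in KO (4.84) and over it in WT (5.31).

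**Figure D2:**
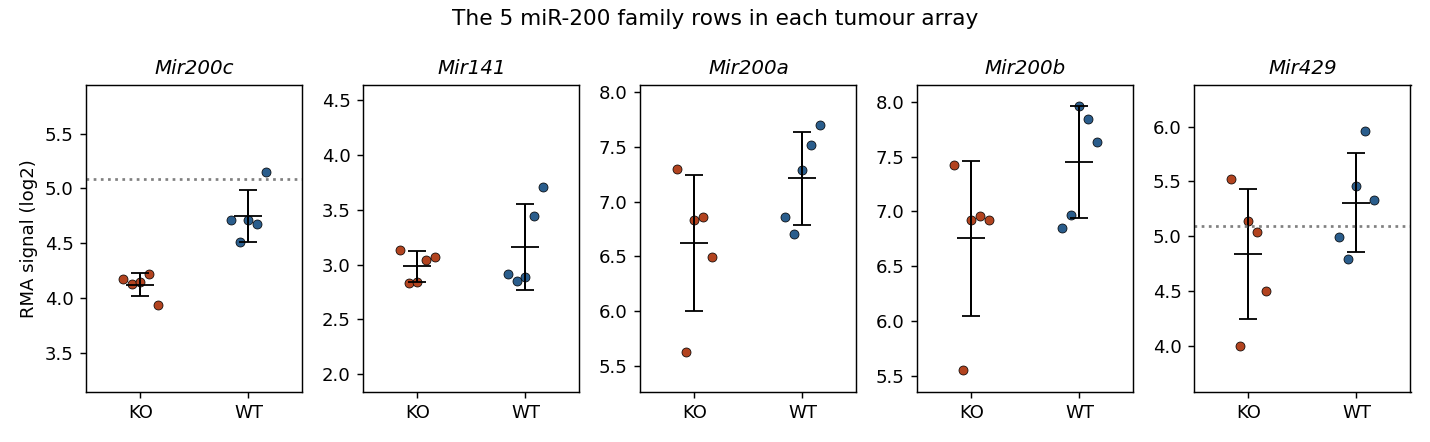
Signal (RMA, log2) of the 5 miR-200 family rows in each tumour array, KO left and WT right; points are arrays, bars the mean and SD over 5 arrays, and the dotted line the guide to background of 5.09. All 5 means are lower in KO, and the groups overlap in all but Mir200c.

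Rows named for microRNA genes or their host genes, such as Mir17hg, numbered 546, and 155 of them had a mean over the guide. Ordered by their difference from the most negative, Mir200b stood at place 1, Mir200c at 2, Mir200a at 3, Mir429 at 5 and Mir141 at 79. The median difference of the 546 rows was -0.03, beside -0.02 for all genes, and 62.5% of them were negative, beside 57.8% of all genes. Of the 546, 29 were lower and 8 higher in KO at unadjusted p under 0.05, which is 6.78%, beside 4.77% of all genes, and 0 passed the adjusted threshold. The 29 include Mir200c, which was chosen for its difference. The places of the family are a description, since Mir200c was chosen for its difference and the others were looked up after it.

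**Figure D3:**
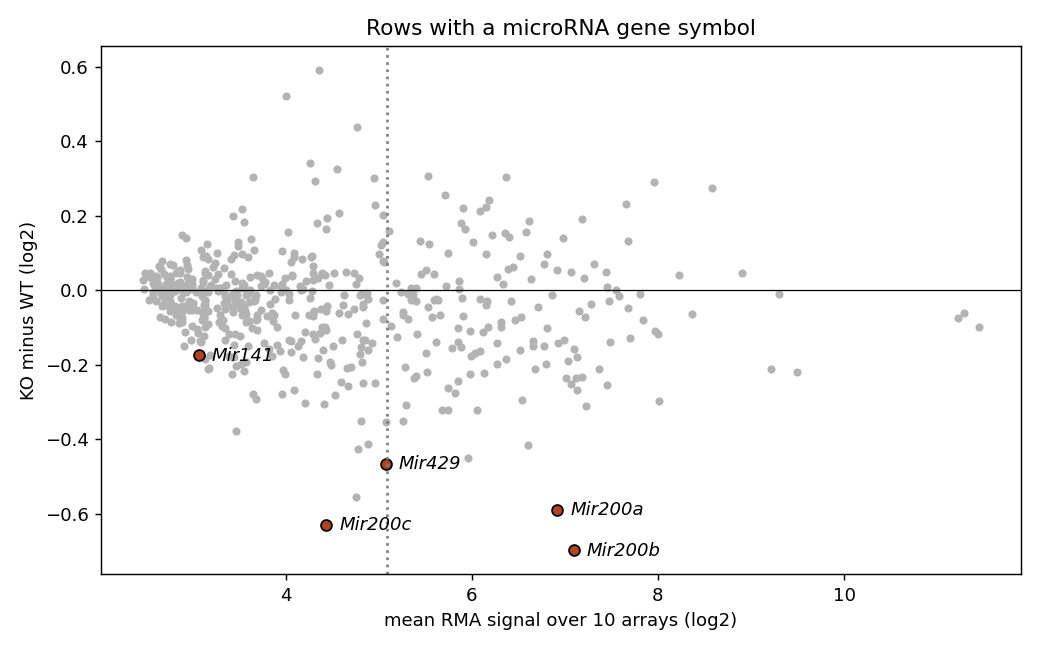
Difference between genotypes (KO minus WT, log2) of the 546 rows named for microRNA genes or their host genes, against their mean signal over 10 arrays (RMA, log2). Red points are the miR-200 family and the dotted line is the guide to background of 5.09. Mir200b, Mir200c and Mir200a are the 3 most negative points, and Mir200a and Mir200b lie well to the right of the guide.

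Rows of the chromosome 4 cluster varied together from tumour to tumour. Over the 10 arrays Mir200a and Mir200b had a Pearson r of 0.94 (permutation p = 0.00046, adjusted p = 0.007 over 42 pairs) and a Spearman rho of 0.79 (permutation p = 0.00884, adjusted p = 0.124). For Mir200a and Mir429 r was 0.93 (permutation p = 0.00017, adjusted p = 0.007) and rho 0.89 (permutation p = 0.00128, adjusted p = 0.0538), and for Mir200b and Mir429 r was 0.90 (permutation p = 0.0005, adjusted p = 0.007) and rho 0.83 (permutation p = 0.0047, adjusted p = 0.0987). Without the 2 arrays farthest from the median the 3 values of r were 0.87, 0.98 and 0.85. Without KO replicate 7 they were 0.85, 0.86 and 0.81, and the adjusted p was 0.0949 for each (exact permutation). Mir141, of the other cluster, had an r of 0.68 with Mir200a (permutation p = 0.0343, adjusted p = 0.296; rho 0.77, permutation p = 0.0125, adjusted p = 0.131; r 0.57 without the 2 farthest arrays). No pooled r is given for Mir200c and the other members, because its values fall into separate clusters by genotype with 5 arrays in each. For deviations from the genotype means its r with the other 9 members lay between -0.63 for Cdh1 and 0.26 for Vim, with 0.08 for Zeb1 and -0.31 for Zeb2, which is a description with no test.

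No called difference was found in Zeb1 or Zeb2, the best known targets of the family. Zeb1, a zinc finger repressor of epithelial genes, had 5.84, 6.18, 6.26, 6.01 and 6.12 in KO tumours, against 5.79, 5.88, 6.33, 6.35 and 6.12 in WT tumours. Every KO value lay within the WT range. The difference was -0.01 ± 0.12 (SE; limma adjusted p = 0.997), with a 95% interval from -0.28 to 0.26, which on the linear scale is 0.822-fold to 1.2-fold. Leaving out 1 array turned its sign in 4 of 10 cases, to at most 0.05.

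Zeb2, the relative of Zeb1 that binds the same DNA element, had 7.94, 8.33, 8.18, 7.73 and 7.71 in KO tumours, against 7.70, 7.58, 8.01, 7.83 and 7.29 in WT tumours. KO replicates 7 and 8 were above every WT tumour and WT replicates 1, 2 and 5 were below every KO tumour, while the rest overlapped. The difference was 0.30 ± 0.15 (SE), with a 95% interval from -0.04 to 0.64, or 0.971-fold to 1.56-fold, and it did not pass (limma adjusted p = 0.91).

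Of the 9 genes beside Mir200c, 0 passed the adjusted threshold, which 0% of all genes did, and 0 were at unadjusted p under 0.05, beside 4.77% of all genes. Of 19 transcripts known as miR-200 family targets, mostly from human cells, 18 were measured. Of these 18, which include Zeb1 and Zeb2, 9 had a positive and 9 a negative difference, beside 42.2% positive among all genes. Their median was 0.01, and 0 were at unadjusted p under 0.05. The targets with the highest signal, the matrix protein fibronectin (Fn1) and the cytoskeletal linker moesin (Msn), differed by 0.11 ± 0.10 and 0.03 ± 0.12 (adjusted p = 0.911 and 0.981).

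The Snail factors and Twist1, which also repress Cdh1, showed no called difference either. Snai2 had 7.44, 8.37, 7.47, 7.59 and 7.50 in KO tumours, against 6.37, 7.61, 7.16, 7.77 and 6.97 in WT tumours. KO replicate 7 was the highest array and WT replicate 1 the lowest, and the difference was 0.50 ± 0.26 (SE; limma adjusted p = 0.91), a 1.41-fold level with a 95% interval from 0.944-fold to 2.11-fold. It was 0.33 without KO replicate 7 and 0.30 without WT replicate 1. Snai1, under the guide to background, had means of 4.56 ± 0.14 in KO and 4.65 ± 0.23 in WT (SD, n = 5 each; adjusted p = 0.93). Twist1, close to the guide, ranged from 5.02 to 5.38 in KO and from 5.09 to 5.52 in WT, a difference of -0.11 ± 0.09 (SE; adjusted p = 0.91).

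Of 14 other measured transcription factors of the transition, 3 had positive and 11 negative differences, beside 57.8% negative among all genes. Their median was -0.13, and 0 passed. Foxc1, a forkhead factor, had means of 5.03 in KO and 5.37 in WT and was the 1 gene of the 14 at unadjusted p under 0.05, beside 4.77% of all genes (difference -0.34 ± 0.13; adjusted p = 0.91). Tcf4 and Sox4, the brightest of them, differed by -0.08 ± 0.17 and -0.19 ± 0.19 (adjusted p = 0.96 and 0.923).

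Cdh1 and Epcam, the epithelial members, were at nearly the same level in both genotypes. Cdh1 encodes E-cadherin, which holds epithelial cells together at adherens junctions. Its signal was 11.47, 11.49, 11.47, 11.40 and 11.55 in KO tumours, against 11.65, 11.43, 11.34, 11.63 and 11.21 in WT tumours. KO values all lay inside the WT range, and the difference of 0.02 ± 0.09 (SE; limma adjusted p = 0.981) had a 95% interval of 0.888-fold to 1.16-fold. Epcam, an epithelial adhesion protein, had 11.43, 11.35, 11.27, 11.35 and 11.36 in KO tumours, against 11.57, 11.43, 11.21, 11.39 and 11.26 in WT tumours. Its KO values were inside the WT range too, with a difference of -0.02 ± 0.07 (adjusted p = 0.984) and a 95% interval of 0.882-fold to 1.11-fold. The signs of both differences turned under some settings, such as -0.03 for Cdh1 when the arrays were quantile normalized again.

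No other epithelial gene listed was called. Of 14 genes known as repressed by ZEB factors, mostly from human cell lines, and including Cdh1 and Epcam, 10 had positive and 4 negative differences. This stands beside 42.2% positive among all genes. Their median was 0.04, and 0 passed at either threshold. Of 26 genes of epithelial identity, junctions and splicing, 16 were positive and 10 negative, with a median of 0.04 and again 0 at unadjusted p under 0.05. Their differences ran from -0.25 to 0.26. At these ends were Cldn4 at -0.25 ± 0.18 and Rab25, a GTPase of apical recycling, at 0.26 ± 0.12 (SE, limma adjusted p = 0.91 for both). Krt8 differed by 0.05 ± 0.08 and Cdh17 by 0.04 ± 0.09 (SE; adjusted p = 0.949 and 0.957).

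The mesenchymal members were not called. Vim encodes vimentin, the intermediate filament of mesenchymal and many immune cells, and had 11.75, 11.43, 11.51, 11.59 and 11.58 in KO tumours, against 10.98, 11.81, 11.33, 10.81 and 11.79 in WT tumours. WT replicates 1 and 4 were the lowest arrays, and the KO values lay inside the WT range. The difference was 0.23 ± 0.19 (SE; limma adjusted p = 0.91), with a 95% interval of 0.88-fold to 1.55-fold, and it was 0.09 to 0.34 with single arrays left out (0.09 without WT replicate 4, 0.14 without WT replicate 1). Cdh2, the N-cadherin gene, was under the guide, with 4.55, 4.95, 4.92, 4.65 and 4.58 in KO tumours and 4.85, 4.78, 5.16, 4.97 and 4.97 in WT tumours (difference -0.21 ± 0.10; adjusted p = 0.91). KO replicates 6, 9 and 10 were below every WT tumour.

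Of 17 other measured mesenchymal genes, 7 had positive and 10 negative differences, with a median of -0.01, and 0 passed. Col1a1, a chain of type I collagen, and Tnc, the matrix protein tenascin C, were lower at unadjusted p under 0.05, beside 2.55% of all genes, with differences of -0.25 ± 0.10 and -0.43 ± 0.18 (SE; adjusted p = 0.91 for both). Sparc, a collagen-binding matrix protein, differed by -0.02 ± 0.08 (adjusted p = 0.981). Of 15 genes of TGF-beta signalling, a main inducer of the transition, 7 were positive and 8 negative and 0 passed. Ltbp1, which stores latent TGF-beta in the matrix, differed by 0.35 ± 0.15, the signal transducer Smad4 by 0.15 ± 0.08 and the receptor Tgfbr2 by 0.11 ± 0.08 (adjusted p = 0.91 for each).

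**Figure D4:**
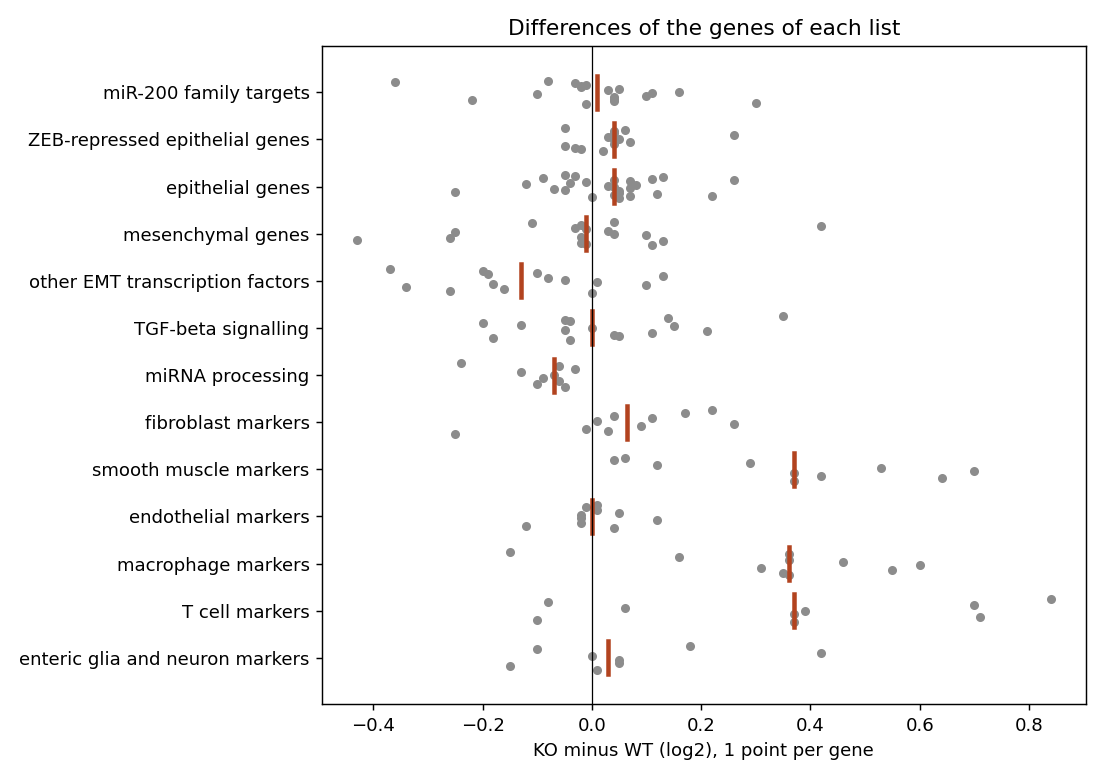
Difference between genotypes (KO minus WT, log2) of each measured gene in 13 lists, 1 point per gene, with the list's median as a red bar. Target, epithelial and mesenchymal lists centre near 0, and the smooth muscle, macrophage and T cell markers have medians of 0.37, 0.36 and 0.37.

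Further lists hold the genes that make microRNAs and the genes beside Mir200c. All 9 genes of the microRNA processing machinery had negative differences, between -0.24 and -0.03, beside 57.8% negative among all genes, and 0 passed. Drosha, which cuts the hairpin from the primary transcript, differed by -0.05 ± 0.08, the silencing protein Ago2 by -0.03 ± 0.07, and Ago4 by -0.24 ± 0.10 (SE; limma adjusted p = 0.945, 0.975 and 0.91). Of 7 genes listed as near Mir200c, Mir141 included, 5 were positive, among them the prohibitin gene Phb2 at 0.07 ± 0.07 and the complement protease genes C1s1 and C1ra at 0.28 ± 0.20 and 0.34 ± 0.14, and 0 passed (adjusted p = 0.911, 0.91 and 0.91).

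A dissected tumour holds several cell types that express these genes, and in bulk RNA fewer cells of a type and less RNA per cell cannot be told apart. Marker scores are the mean over a list of each gene's log2 signal minus its mean over the 10 arrays. Of all genes, 42.2% had a positive difference, which stands beside each count of positive markers. Macrophage markers were positive in 9 of 10, with scores of -0.01 to 0.34 in KO and -0.27 to -0.10 in WT, and 9 of the 10 were over the guide. At unadjusted p under 0.05, 8 of the 10 were higher in KO, beside 2.22% of all genes, among them the complement gene C1qb at 0.60 ± 0.14 and the lysosomal protein gene Cd68 at 0.55 ± 0.15 (SE; limma adjusted p = 0.91 for both). Smooth muscle markers were positive in 10 of 10, with scores of -0.54 to 0.74 in KO and -0.58 to 0.15 in WT. T cell markers were positive in 7 of 9 (scores -0.20 to 0.56 in KO and -0.47 to 0.08 in WT), and at unadjusted p under 0.05 KO was higher for 3 of the 9, beside 2.22% of all genes. These were the cytokine receptor gene Il7r at 0.84 ± 0.22, the T cell receptor gene Trac at 0.70 ± 0.22 and its partner Cd3g at 0.71 ± 0.26 (SE; limma adjusted p = 0.91 for each). Fibroblast markers were positive in 8 of 10 (-0.11 to 0.20 in KO and -0.31 to 0.14 in WT), endothelial markers in 5 of 10 (-0.26 to 0.26 in KO and -0.25 to 0.17 in WT), and enteric glia and neuron markers in 5 of 8 (-0.11 to 0.15 in KO and -0.11 to 0.07 in WT), of which 3 were over the guide. The epithelial score ran from -0.02 to 0.04 in KO and from -0.10 to 0.12 in WT. No gene of these marker lists passed the adjusted threshold.

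Zeb2 followed the smooth muscle score over the 10 arrays, with a Pearson r of 0.88 (permutation p = 0.00112) and a Spearman rho of 0.84 (permutation p = 0.00371). Adjusted over 91 pairs of a score and a gene, the permutation p-values were 0.102 and 0.243, so the relation did not pass. It was 0.87 without the 2 arrays farthest from the median score and 0.85 for deviations from the genotype means. Zeb2 also had an r of 0.83 with the T cell score (permutation p = 0.00334, adjusted p = 0.143; rho 0.79, permutation p = 0.00887, adjusted p = 0.269), which was 0.66 without the 2 farthest arrays. With the smooth muscle score as a covariate the Zeb2 difference of 0.30 was 0.09, and with the macrophage score it was 0.03 (limma adjusted p = 0.994 and 1). Snai2 had an r of 0.73 with the fibroblast score (permutation p = 0.0187, adjusted p = 0.232; rho 0.68, permutation p = 0.0349, adjusted p = 0.434), or 0.50 without the 2 farthest arrays. With the macrophage score its r was 0.68 (permutation p = 0.0255, adjusted p = 0.232; rho 0.62, permutation p = 0.0596, adjusted p = 0.434), or 0.57 without the 2 farthest arrays. With the smooth muscle score it was 0.64 (permutation p = 0.0424, adjusted p = 0.318; rho 0.59, permutation p = 0.0798, adjusted p = 0.434), or 0.74 without the 2 farthest arrays. The Snai2 difference of 0.50 was 0.27 with the smooth muscle score as a covariate and -0.29 with the macrophage score (limma adjusted p = 0.994 and 1). Zeb2 had an r of 0.60 with the macrophage score (permutation p = 0.0686, adjusted p = 0.378), or -0.03 without the 2 farthest arrays. The macrophage score did not overlap between genotypes, so the fits of Zeb2 and Snai2 with it can hardly separate score from genotype. Of the 91 pairs, which include the other miR-200 rows, 13 had an unadjusted permutation p under 0.05 and 0 passed. The strongest r of a score with a miR-200 row was -0.78, for the enteric glia and neuron score and Mir200a (permutation p = 0.00602, adjusted p = 0.143). It was -0.61 without the 2 farthest arrays. The smooth muscle and macrophage covariates were added after seeing the data, and the T cell score was not used as a covariate. The part of cell types in the Zeb2 and Snai2 differences was not tested.

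With a marker score as covariate the Mir200c difference lay between -0.62 and -0.59. It was -0.62 with the smooth muscle or the fibroblast score, -0.61 with the macrophage score and -0.59 with the epithelial score. Nothing is read from these values, because the row was chosen on this contrast. With the macrophage score the differences of Mir200a, Mir200b and Mir429 turned to 0.29, 0.45 and 0.23. The macrophage score does not overlap between genotypes, so in that fit score and genotype can hardly be told apart.

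Among the members themselves, tumours with more Zeb1 signal had less Epcam signal in these arrays. The Pearson r was -0.75 (permutation p = 0.0104, adjusted p = 0.27 over 45 pairs) and the Spearman rho -0.68 (permutation p = 0.0344, adjusted p = 0.516), and r was -0.53 without the 2 arrays farthest from the median of Zeb1. With single arrays left out r ran from -0.90 to -0.64, and it passed only without WT replicate 4 (-0.90, exact permutation, adjusted p = 0.0295). With the fibroblast score r was 0.64 for Zeb1 and -0.55 for Epcam (permutation p = 0.0455 and 0.105, adjusted over 91 pairs 0.318 and 0.451). Without the 2 arrays farthest from the median score these were 0.51 and -0.02. With the endothelial score r was 0.62 and -0.54 (permutation p = 0.06 and 0.109, adjusted p = 0.364 and 0.451). The part of cell types in the Zeb1 and Epcam pair was not tested. Cdh1 had an r of -0.69 with Vim (permutation p = 0.0279, adjusted p = 0.27; rho -0.62, permutation p = 0.0589, adjusted p = 0.53) and of 0.71 with Epcam (permutation p = 0.0227, adjusted p = 0.27; rho 0.60, permutation p = 0.0735, adjusted p = 0.53). Without the 2 farthest arrays these were -0.52 and 0.49. For Zeb1 and Cdh2 r was 0.64 (permutation p = 0.0482, adjusted p = 0.362; rho 0.72, permutation p = 0.0231, adjusted p = 0.516; r 0.66 without the 2 farthest arrays), and for Zeb1 and Zeb2 it was 0.37 (permutation p = 0.301, adjusted p = 0.712; rho 0.49, permutation p = 0.158, adjusted p = 0.579; r 0.51 without the 2 farthest). Zeb1 had a negative r with Vim, -0.32 (permutation p = 0.367, adjusted p = 0.762), or -0.78 without the 2 farthest arrays. With Cdh1 its r was -0.14 (permutation p = 0.698, adjusted p = 0.898), or 0.25 without the 2 farthest arrays. Of the 45 pairs, which count those with Mir200c, 0 passed after adjustment and 6 had an unadjusted p under 0.05. The remaining pairs among the 6 join Snai1 to Cdh1 and to Epcam (r of 0.71 and 0.68, permutation p = 0.0221 and 0.03, adjusted p = 0.27 for both; rho 0.55 and 0.85, permutation p = 0.106 and 0.00283, adjusted p = 0.53 and 0.127). They rested on the 2 farthest arrays, without which r was 0.27 and 0.33.

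**Figure D5:**
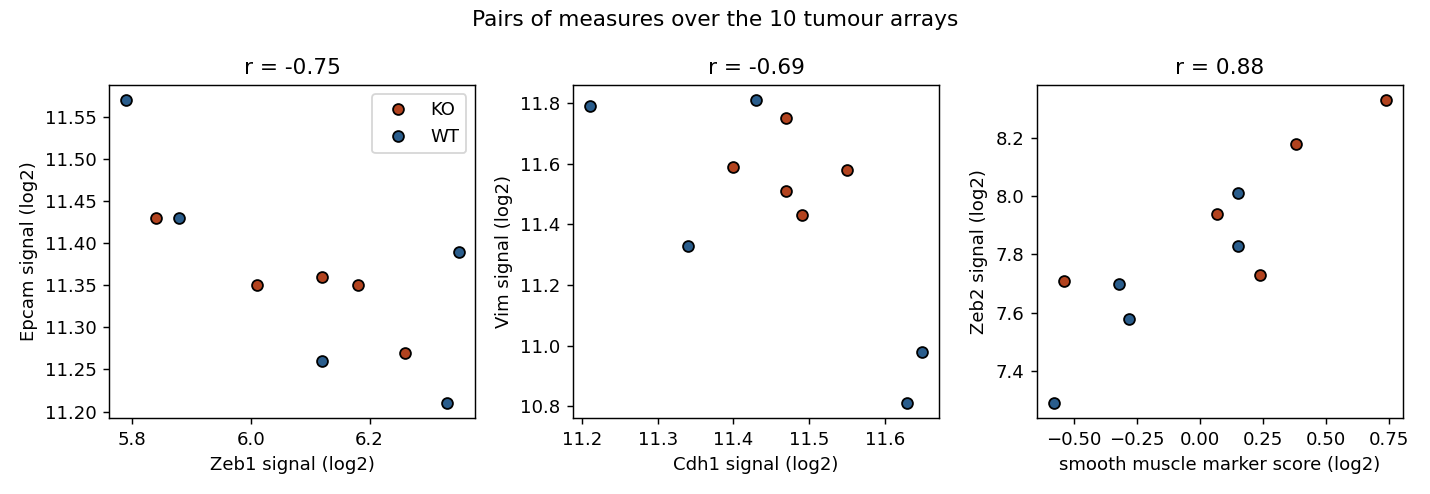
Zeb1 and Epcam signal, Cdh1 and Vim signal, and the smooth muscle score and Zeb2 signal (all log2) over the 10 tumour arrays, KO in red and WT in blue, 1 point per array, with Pearson's r above each panel. KO and WT points are mixed along the Zeb1 axis, and WT points lie at both ends of the Cdh1 axis.

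The Epcam promoter is shown because its signal ran opposite to Zeb1, though the pair did not pass after adjustment. ZEB and Snail factors bind the E-box CACCTG, whose reverse complement is CAGGTG. The window runs from 250 bases before to 50 bases after the start of the gene (RefSeq, GRCm38.p6, chr17:87635729-87636028, plus strand), with both spellings of the E-box in capitals.
Epcam promoter: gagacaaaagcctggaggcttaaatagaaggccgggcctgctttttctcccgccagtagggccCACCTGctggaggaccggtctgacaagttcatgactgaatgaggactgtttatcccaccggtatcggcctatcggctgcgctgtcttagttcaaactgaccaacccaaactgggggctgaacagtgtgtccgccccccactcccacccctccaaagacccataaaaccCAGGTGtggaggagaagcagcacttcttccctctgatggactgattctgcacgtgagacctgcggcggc
The E-boxes begin 187 and 19 bases before the start and do not overlap. At least 1 such E-box occurs in 20.2% of 32851 promoter windows of this length, and 2 or more in 2.88%. The Snai1 window held 1 E-box, and those of Zeb2, Twist1 and Vim held 0. Windows of Cdh1, Zeb1, Snai2, Cdh2 and Mir200c were not used here. A match of letters is a description and shows no binding.

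The SDs of the members in KO and WT are given as a description. The SD of Vim was 0.12 in KO and 0.46 in WT, that of Cdh1 0.05 in KO and 0.19 in WT, and that of Epcam 0.06 in KO and 0.14 in WT, so that the SD in WT was 3.8, 3.58 and 2.57 times that in KO. Over the other members the ratio ran from 0.766 for Cdh2 to 2.19 for Mir200c. The median of this ratio over all genes was 1.18, and 9.77% of genes exceeded 2.5. The difference in spread was not tested.

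The genes most like a member over the 10 arrays were taken from those with a mean over the guide, 13064 for Mir200c and 13063 for Zeb1 and Cdh1, and each r is a description. Most like Mir200c were Grsf1, a mitochondrial RNA-binding protein (r = 0.92), Rab17, a small GTPase of epithelial cells (0.91), the collagenase Mmp13 (0.91), the ubiquitin ligase Rlim (0.91) and the stromelysin Mmp10 (0.89). Mir200c values form separate clusters by genotype, so r over all arrays, and this ranking, partly measure the difference Mir200c was chosen for. Genes ranked this way tend to be lower in KO because Mir200c was chosen for being so. Nothing is read from their direction, their r or their place. Within genotypes, taken as deviations from the genotype means, r was 0.80, 0.84, 0.67, 0.62 and 0.71. The ranking by r over all arrays includes this part, so nothing is read from the size of these values. Most like Zeb1 were Zfp385a, a zinc finger protein, Svbp, a partner of vasohibin, Septin1, of the septin cytoskeleton, Stat5a, a cytokine-activated transcription factor, and Mif4gd, with r between 0.84 and 0.89. Most like Cdh1 were Myo18a, an unconventional myosin, Tmcc3, the kinase Stk25, the inositol phosphate kinase Ppip5k1 and Chmp2b, of the membrane-sorting ESCRT machinery, with r of 0.90 to 0.91.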

How the data were processed

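The values deposited by the authors are log2 signals, with 1 row per probe set. RMA and Partek are named in the submitters' processing notes, with versions and genome build not given in the sources used here, and log base 2 was taken from the range of the values. RMA sets the arrays to a common distribution, and differences of dim rows can come out too small. Of 23747 probe sets, 23111 carry 1 gene symbol in the platform annotation and 636 are not listed. KO was compared with WT over all 23111 genes by lmFit and eBayes of limma 3.58.1 (R 4.3.3), two-sided, with Benjamini-Hochberg adjustment over all of them and a threshold of 0.05. The fit was tested on simulated data. Correlations used permutation tests (100000 resamples), two-sided, adjusted over 45, 42 and 91 pairs. Members, lists and the guide to background were chosen with earlier results of these data known. Named beside the members were, of each list, genes at unadjusted p under 0.05 (at most 4) and the 2 with the highest signal, and the 5 genes most like Mir200c, Zeb1 and Cdh1. Cldn4 and Rab25 were named outside this rule, as the ends of the range of the epithelial genes. Alternatives left out single arrays or dim genes, renormalized, changed the variance model or weights, took all probe sets, or added a marker score. Alternatives for correlations were run for the pairs reported, which were picked after the correlations were seen. The pairs of the other miR-200 rows and of marker scores, and the smooth muscle and macrophage covariates, were added after seeing the data. Correlations between arrays ran from 0.965 to 0.993, and 0 pairs were identical. The number of arrays limits the precision.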

Additional observations from a re-analysis of the deposited data

Results flagged for a closer look

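Of 28 sets of 5 arrays, 14 genes in each genotype, 2 held an array far from the other 4 by Dixon's test, where chance gives about 1 in 20. Snai2 was 8.37 in KO replicate 7, against 7.44 to 7.59 in the other KO tumours. Mir200b was 5.55 in the same array, against 6.92 to 7.42 in the other KO tumours. KO replicate 7 also had the highest smooth muscle score, 0.74, and the highest macrophage score, 0.34. The part of these in the values was not tested.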

How the results depend on the processing

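None of the 9 members beside Mir200c was called under any of up to 20 alternatives, and Mir200c was given no test. As reported, 0 of all genes were called. The count of genes called at adjusted p under 0.05 was 1 with an intensity trend and robust estimation, 2 without dim genes, 3 with all probe sets, 1 with the epithelial score as covariate, and 0 to 2 with single arrays left out (2 without WT replicate 3, 1 without KO replicate 8); these were Kcne3, Trim12a, Gm15133 and the unnamed probe set of Ucp2. The count at unadjusted p under 0.05, 1103 as reported, was 645 without dim genes, 449 with the macrophage score as covariate (chosen after seeing the data, as was the smooth muscle score), and 735 (without KO replicate 7) to 1376 with single arrays left out. Signs near 0 turned. With single arrays left out Zeb1 ranged from -0.085 to 0.055, Cdh1 from -0.037 to 0.075 and Epcam from -0.059 to 0.031. Cdh1 was -0.028 after quantile normalization again, -0.018 with the epithelial and -0.015 with the macrophage score, and Epcam was 0.0069 with the fibroblast, 0.0011 with the smooth muscle and 0.022 with the macrophage score. With the macrophage score Snai1 was 0.14, Snai2 -0.29, Twist1 0.10, Mir200a 0.29, Mir200b 0.45 and Mir429 0.23; the cause was not tested. The r of Zeb1 with Cdh1 was -0.14 over all arrays and -0.43 to 0.16 with single arrays left out (0.16 without WT replicate 1), and that of Zeb2 with the smooth muscle score passed without KO replicate 9 (0.92, exact permutation, adjusted p = 0.0459). Mir200c, Snai1 and Cdh2 have no value without dim genes, and signal near background limits what these rows can show. No paired analysis was run, because the labels name no pairing of KO with WT tumours.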

Other observations

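Among the 8 microRNA rows with the most negative differences, those outside the miR-200 family were Mir3070b, Mir31, Mir135b and Mir1938, named after their values were seen. Mir31 and Mir135b, both known as raised in colorectal tumours, had means of 5.73 and 4.56 in KO and 6.18 and 4.99 in WT. The means of Mir3070b and Mir135b lay under the guide to background in both genotypes. Mir145a had the most positive difference of the 546 rows, 0.591, at a mean signal of 4.36, under the guide to background. None of these passed the adjusted threshold of the limma fit.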
